A study of Mus musculus with 2 samples.

Results

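The regions described here are stretches of the mouse embryonic stem cell (ESC) genome in which KDM2A binding sites lie close together. Chromosomes 1 to 19 were divided into windows of 500 kb counted from position 1, and a window was taken as peak-dense when at least 8 KDM2A peaks started in it. Of the 4817 windows that held a tag, 513 met this limit, which is 10.6% of them. The study immunoprecipitated chromatin from V6.5 ESCs, a line the growth notes describe as a C57BL/6 by 129/sv cross although the strain field reads C57BL/6, with an antibody raised against KDM2A. The cells had been kept on inactivated fibroblasts and were passaged without feeders on gelatin before use. The control was input DNA of the same cells, sequenced without immunoprecipitation. There was 1 library of each and no replicate, so every value below describes these 2 libraries, no test between conditions could be made, and intervals cover counting error only.

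KDM2A is a demethylase that removes methyl groups from lysine 36 of histone H3, mainly from the dimethylated form. It contacts DNA through a zinc finger CxxC domain that recognizes the CpG dinucleotide when its cytosines are not methylated, and methylation of the CpG blocks this contact. Most of the mammalian genome is poor in CpG and methylated where CpG occurs, whereas CpG islands, which surround many gene promoters, are CpG rich and usually free of methylation. Mammalian genes are spread unevenly along chromosomes, and promoters with islands are therefore also unevenly spread.

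Peaks were found in 250 bp bins. After counting each position and strand once, chromosomes 1 to 19 held 9398246 KDM2A tags and 7582941 input tags, and input was multiplied by 1.24 to bring the libraries to the same total. A bin was called when it held at least 15 KDM2A tags, at least 3 times the scaled input and under 8 input tags, and called bins with gaps of up to 500 bp were joined into a peak. Of the 6363633 bins that held a tag, 0.509% were called. They formed 14482 peaks. With the libraries exchanged, so that input was tested against KDM2A, there were 12 peaks in all and no window held more than 3 of them.

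Peak-dense windows held 7533 of the 14482 peaks, or 52.0% (95% Wilson interval 51.2% to 52.8%). This concentration follows in part from the rule, which chose the windows by their number of peaks, and it is given as a description. The same windows held 27.6% of the KDM2A tags of chromosomes 1 to 19 and 16.6% of the input tags. The median peak-dense window held 12 peaks, with quartiles of 10 and 17. At least 20 peaks were present in 95 windows, at least 30 in 25 windows and at least 50 in 3 windows. At the limit itself, 114 windows held 7 peaks and 50 held 8. Both sides of the limit had the same median peak height of 21 tags, and the median KDM2A density outside peaks was 5.61 tags per kb at 7 peaks and 6.65 at 8. How many windows are called dense depends on the tag minimum, since 239 windows held 8 peaks when a bin had to hold at least 20 KDM2A tags.

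**Figure D1:**
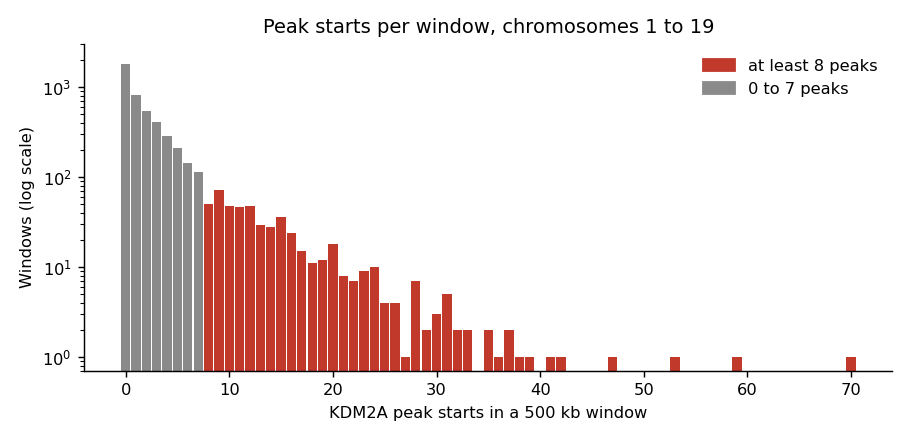
Number of 500 kb windows (log scale) for each number of KDM2A peak starts per window, chromosomes 1 to 19, with the 513 peak-dense windows in red and the other windows in grey. The number of windows falls from 1793 without a peak to single windows with 47, 53, 59 and 70 peaks.

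The peak-dense windows were spread over all 19 chromosomes, but unequally. Chromosome 11 had the highest share, with 71 of 238 windows (29.8%), followed by chromosome 8 with 52 of 253 (20.6%), chromosome 17 with 31 of 185 (16.8%) and chromosome 4 with 49 of 306 (16.0%). Chromosome 13, with 5 of 235 windows (2.13%), chromosome 6 with 2.72% and chromosome 3 with 3.18% were lowest. The 6 chromosomes with the most peak-dense windows (11, 8, 2, 4, 5 and 7) held 59.5% of them and 36.1% of all windows.

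Part of this order moved with the number of tags a chromosome had received. Chromosomes 8 and 11 also stood highest in the input library, at 1.42 and 1.38 times the median autosome in tags per window, and a fixed tag minimum is reached more easily there. When the minimum was multiplied by each chromosome's input, to 21.3 tags on chromosome 8 and 20.7 on chromosome 11, the share of peak-dense windows was 9.88% on chromosome 8 and 16.0% on chromosome 11. Chromosome 11 then stood beside chromosomes 4 and 17, at 16.0% and 15.7%, and chromosome 8 was close to the share of all windows under the scaled minimum, 8.99% (433 of 4817). Chromosome 13 remained lowest, at 2.13%. What raised the input on these chromosomes was not tested.

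**Figure D2:**
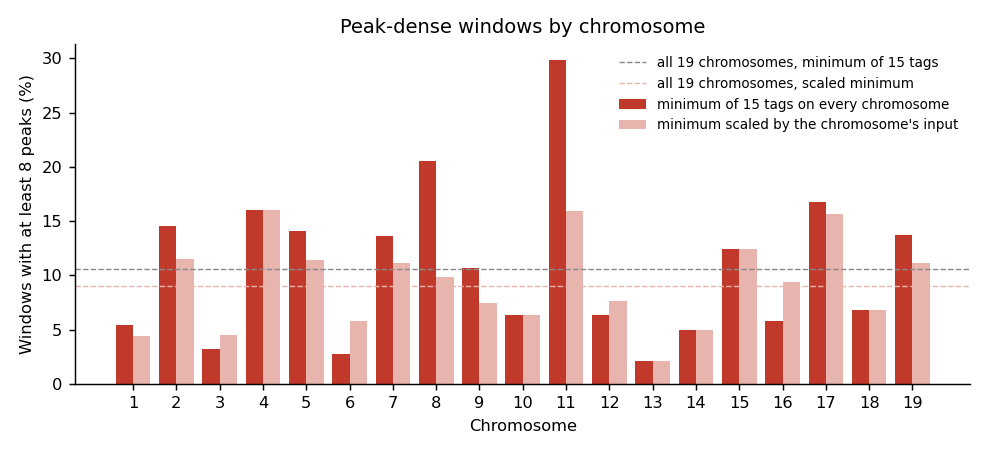
Share of the 500 kb windows of each chromosome that held at least 8 peaks (%), with the minimum of 15 KDM2A tags on every chromosome (dark bars) and with the minimum multiplied by the chromosome's input over that of the median autosome (light bars). The dashed lines mark the shares over all 19 chromosomes, 10.6% with the fixed (grey) and 8.99% with the scaled minimum (light). Chromosomes 8 and 11 lose most of their excess with the scaled minimum, from 20.6% to 9.88% and from 29.8% to 16.0%.

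The share of peak-dense windows was compared with the gene content of whole chromosomes. The RefSeq annotation of GRCm38.p6 is in another build than mm9, the build named in the submitters' processing notes, so genes could be counted per chromosome but not placed in a window. Chromosome 11 had 6.76 protein-coding genes per window in this count and chromosome 13 had 3.53. Over the 19 chromosomes, Spearman's rho between genes per window and the share of peak-dense windows was 0.72 and Pearson's r was 0.72, or 0.66 without the 2 chromosomes farthest from the median gene content. With the scaled minimum, rho was 0.70. Chromosomes 7 and 8 were exceptions to the order. Chromosome 7 had the most genes per window, 7.07, and 13.6% of its windows were peak-dense. Chromosome 8, highest in input, had 4.12 genes per window and 20.6% of its windows were peak-dense. The share also followed the median input per window, with a rho of 0.66. All points come from the same pair of libraries, and no p-value is given.

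Along the chromosomes, the end far from the centromere held more of the peak-dense windows. Mouse autosomes have the centromere at the end where positions are lowest. When each chromosome was divided into 3 equal parts, 16.8% of the windows of the part with the highest positions were peak-dense (271 of 1614). The middle part had 7.78% and the part nearest the centromere 7.33%.

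Peak-dense windows lay next to each other. Of the 513, 390 (76.0%) touched another, and of the 795 windows next to a peak-dense window, each counted once, 49.1% were themselves peak-dense, beside 10.6% of all windows. A window without any peak was found in 42 of the 795 (5.28%), whereas 37.2% of all windows had none. Joined end to end, the windows formed 229 runs, of which 123 were a single window, 45 were pairs and 61 had 3 or more windows. These 61 held 300 of the 513 windows. Each of 3 runs reached 13 windows, or 6.5 Mb. They were on chromosome 11 from 114500001 to 121000000 with 294 peaks, on chromosome 17 from 23500001 to 30000000 with 237 peaks and on chromosome 4 from 131500001 to 138000000 with 167 peaks. The number of peaks within such runs was uneven, from 10 to 38 per window in the run of chromosome 11 and from 8 to 28 in that of chromosome 17. Next in length were runs on chromosome 5 from 120500001 to 126000000, with 11 windows and 131 peaks, and on chromosomes 8 and 15 with 10 windows each. The run of chromosome 8, from 121500001 to 126500000, held 217 peaks, and that of chromosome 15, from 97500001 to 102500000, held 130.

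The windows with the most peaks came from few places. The highest number, 70, was found on chromosome 8 from 73000001 to 73500000, where the window held 13096 KDM2A tags and 3453 input tags. This ranking uses the fixed minimum of 15 tags, which is reached more easily on chromosomes 8 and 11. The median peak height in this window, 20.5 tags, was below the scaled minimum of chromosome 8, 21.3 tags. The ranking was not repeated with the scaled minimum. The 4 windows of chromosome 10 between 79000001 and 81000000 held 47, 53, 41 and 59 peaks. They formed a single run of 2 Mb with 200 peaks, which is 26.7% of the 749 peaks of that chromosome, although only 6.30% of the windows of chromosome 10 were peak-dense. The remaining windows of the 10 with the most peaks were on chromosome 8 from 87000001 to 87500000 (42 peaks) and from 74000001 to 74500000 (39 peaks), on chromosome 11 from 120000001 to 120500000 (38 peaks) and from 115500001 to 116000000 (37 peaks), and on chromosome 7 from 52000001 to 52500000 (37 peaks).

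In the window of chromosome 8 with 70 peaks, tall peaks stood among many low peaks. Its highest peak, from 73435501 to 73439000, reached 74 tags in its highest bin and held 561 KDM2A tags and 30 input tags. Its widest peak, from 73118001 to 73123750, spanned 5.75 kb and held 613 KDM2A tags and 40 input tags. The median height was 20.5 tags, 41.4% of the peaks were a single called bin, and peaks covered 12.4% of the window. The longest stretch without a peak start was 45.5 kb. The window of chromosome 10 with 59 peaks, from 80500001 to 81000000, had the same longest stretch. Its highest peak, from 80654501 to 80656250, reached 68 tags with 223 KDM2A tags and 6 input tags in all. In the window of chromosome 10 with 53 peaks, the highest peak reached 76 tags, from 79592251 to 79595000, and a peak of 5.5 kb from 79773751 to 79779250 held 706 KDM2A tags and 26 input tags.

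**Figure D3:**
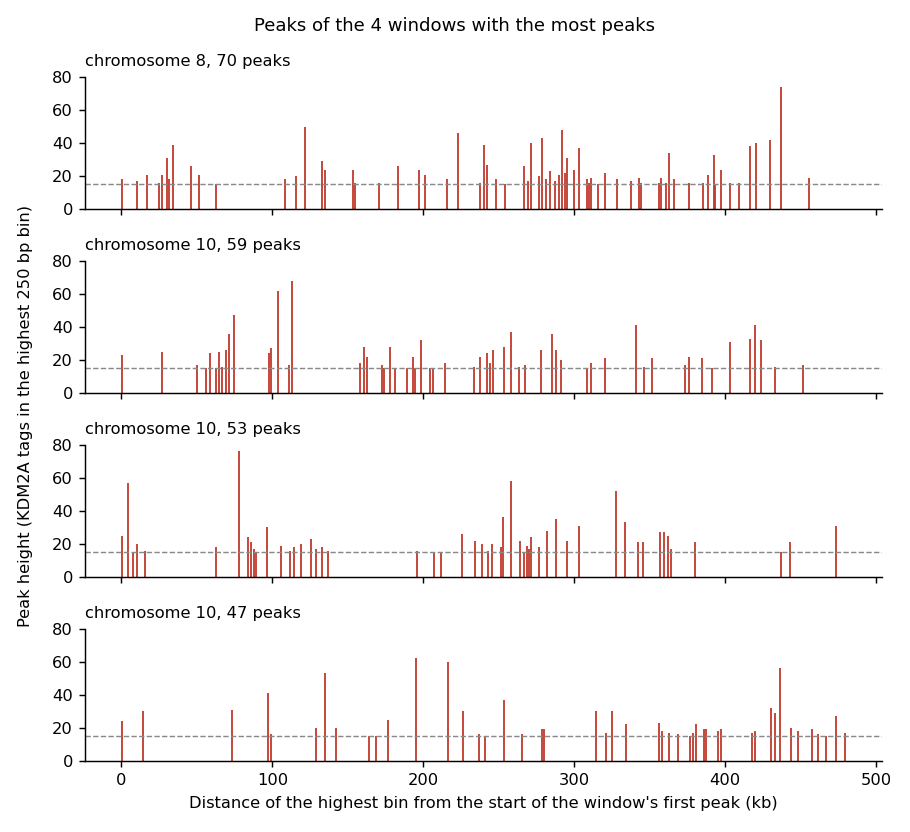
Peaks of the 4 windows with the most peaks (70, 59, 53 and 47). Each line is a peak, placed by the distance of its highest bin from the start of the window's first peak (kb), and its length is the number of KDM2A tags in that bin; the dashed line is the minimum of 15 tags. A few peaks of over 50 tags stand among many of 15 to 25 tags, and no stretch between peak starts in these windows is longer than 58.75 kb.

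Within peak-dense windows, neighbouring peak starts were a median of 17 kb apart, with quartiles of 6.25 and 39 kb (7020 pairs in the same window). In windows with 2 to 7 peaks the median was 65 kb, with quartiles of 28.75 and 127.75 kb (4438 pairs). A shorter distance follows from the rule. The rule set the least number of peaks in a window but not their positions. The values that follow depend on that number as well, and the distances pool windows with different numbers of peaks. They were not compared with peaks placed at random, so whether the spread was more uneven than the number of peaks implies was not tested. The mean distance in peak-dense windows, 29.3 kb, was well above the median, 19.5% of the distances were under 5 kb, and 351 of the 7020 were over 100 kb. The longest stretch of a peak-dense window without a peak start had a median of 125.5 kb. In 29 windows (5.65%) it was 250 kb or more. Divided into 10 parts of 50 kb, the median peak-dense window had peaks in 7 of them, 24 windows had a peak in every part, and 30 had peaks in at most 4.

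The extremes of spacing ran from compact groups to widely spread peaks, and the fixed window edges cut some of the groups. On chromosome 1, from 75500001 to 76000000, 9 peaks lay within 53.25 kb, with a median spacing of 3.125 kb, and an unbroken 446.75 kb of the window held no peak start. These peaks lay at the window's edge, and the window before it, from 75000001 to 75500000, held 26 peaks. The window of chromosome 8 from 73500001 to 74000000 had a median spacing of 3.75 kb between 22 peaks and a stretch of 296.25 kb without a peak start. It lay between windows of 70 and 39 peaks. The widest median spacing, 76.25 kb, was found on chromosome 7 from 35000001 to 35500000, whose 8 peaks were spread over 445.75 kb. The windows of chromosome 16 from 32000001 to 32500000 and of chromosome 14 from 21000001 to 21500000 followed, at 67.75 and 66.25 kb.

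The median height of a peak, the number of KDM2A tags in its highest bin, hardly moved with the density of peaks, whereas the upper tail was heavier in the densest windows. In peak-dense windows the median was 21 tags with quartiles of 17 and 27, and in windows with 1 to 7 peaks it was also 21 tags with quartiles of 17 and 27. The 90th percentiles were 34 and 33 tags. Among windows with a single peak, and with 2 to 3, 4 to 7, 8 to 11, 12 to 19, 20 to 29 and 30 or more peaks, the median stayed at 20 or 21 tags. The share of peaks of at least 40 tags in these groups was 2.09%, 3.79%, 3.99%, 4.54%, 3.76%, 5.33% and 7.84%. It did not rise in every step, being lower with 12 to 19 peaks than with 8 to 11. In windows with 30 or more peaks the 90th percentile was 37 tags. Without chromosome 8 these shares were 1.79%, 3.58%, 3.38%, 3.82%, 3.33%, 4.44% and 5.38%, and the 90th percentile with 30 or more peaks was 33 tags. KDM2A tags per kb of peak lay between 79.5 and 84.3 in these groups, in no order of density. Because every peak had to hold at least 15 tags in a bin, the lower part of the distribution is fixed by the minimum. When peaks were chosen on plus-strand tags alone, with at least 8 KDM2A and under 4 input tags, and their highest bin was then measured on the minus strand, the median was 8 tags in the 588 peak-dense windows so chosen and 8 in windows with 1 to 7 peaks. With the strands exchanged, the medians were 8 and 9 tags.

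Set against the tags around them, peaks of peak-dense windows stood out less. The level outside peaks in the same window was a median of 2.09 KDM2A tags per bin for peaks of peak-dense windows and 1.06 for the others. Peak height was a median of 10.2 times this level in peak-dense windows and 21.5 times in windows with 1 to 7 peaks. The multiple fell with every step in density, from 34.7 in windows with a single peak to 6.86 in windows with 30 or more. This fall was largely fixed in advance. The same minimum of tags applied in all windows and the median height hardly moved, so the multiple mostly mirrors the level outside peaks. It is given as a description and does not measure the peaks apart from that level. After subtracting the level outside peaks, the median height was 18.4 tags in peak-dense windows and 20.1 tags in the others. When the minimum was set at 14 tags above each window's own level outside peaks, 448 windows held 8 or more peaks. Over all peaks, KDM2A was 13.4 times the scaled input in peak-dense windows and 17.2 times in the others, and input itself was 4.98 tags per kb of peak in the former and 3.88 in the latter.

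Wide and high peaks lay in peak-dense windows more often than peaks did in general, and for high peaks the difference was smaller without chromosome 8. Peaks of at least 40 tags were 4.82% of the peaks in peak-dense windows (363) and 3.70% of the others (257), so that peak-dense windows held 58.5% of them (54.6% to 62.4%), beside 52.0% of all peaks. Chromosome 8 had the most input per window, 1.42 times the median autosome. Without it, the shares were 54.5% (50.04% to 59.0%) of the peaks of at least 40 tags and 50.05% of all peaks. The latter lies just inside that interval. Of the 41 peaks of at least 60 tags, peak-dense windows held 28, or 68.3% (53.0% to 80.4%), and of the 100 highest peaks they held 65. Both counts include chromosome 8, and no share without it was computed for them. Peaks of at least 2.5 kb were 1.61% of the peaks in peak-dense windows (121) and 0.475% of the others (33). Peak-dense windows held 78.6% of these wide peaks (71.4% to 84.3%), and 83 of the 100 widest peaks. The share of wide peaks was 74.5% (65.7% to 81.8%) without chromosome 8. Where peaks lie close together, called bins also meet and merge more often, and with gaps of up to 500 bp joined the width is not independent of density.

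Named individually, the highest peak in a peak-dense window was on chromosome 8 from 113580001 to 113581250. It reached 121 tags and held 337 KDM2A tags and 5 input tags, in a window with 13 peaks. The next were also on chromosome 8, with 96 tags from 86190501 to 86193500 and 95 tags from 72853751 to 72856750, followed by a peak of 81 tags on chromosome 7 from 25370501 to 25371500, which held 183 KDM2A tags and 2 input tags. Chromosome 8 has the most input tags per window, as described above. The highest peak elsewhere had 83 tags. The widest peak was on chromosome 15 from 76002751 to 76014500. It spanned 11.75 kb, with 1290 KDM2A tags and 72 input tags, and its highest bin held 44 tags, so that it was broad rather than tall. The second widest, on chromosome 10 from 79196751 to 79204000, spanned 7.25 kb, with 778 KDM2A tags and 36 input tags. The widest peak outside peak-dense windows spanned 5.25 kb.

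Peaks with another peak very close by had a lower median height than those that stood alone. In peak-dense windows, 789 peaks had another peak start within 2 kb, and their median height was 19 tags. Of these, 56.0% were a single called bin. The 550 peaks whose nearest neighbour was at least 50 kb away had a median height of 22 tags, and 35.6% of them were a single bin. The medians in between were 20 tags at 2 to 5 kb and 21 tags at 5 to 20 kb and 20 to 50 kb. The share of peaks of at least 40 tags was not in this order. It was 3.17% within 2 kb, 5.50% at 2 to 5 kb and 5.09% at 50 kb or more. These values depend in part on how peaks were made. Called bins with gaps of up to 500 bp were joined, and distances run from start to start. A peak followed by another start within 2 kb therefore had to be narrow. How far this lowers the height of close peaks was not tested. All 7533 peaks of peak-dense windows held tags of both strands, with 49.9% of the tags on the plus strand.

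Peak-dense windows differed among themselves in height. The highest median was 34 tags, in the 9 peaks of chromosome 8 from 126000001 to 126500000, followed by 33.5 tags in the 10 peaks of chromosome 8 from 26500001 to 27000000 and 32 tags in the 9 peaks of chromosome 11 from 62000001 to 62500000. A median of 31 tags was shared by 3 windows, on chromosome 11 from 4500001, with 12 peaks, on chromosome 11 from 59500001, with 9 peaks, and on chromosome 7 from 13500001, with 9 peaks. Of these 6 windows, 5 were on chromosomes 8 and 11, the chromosomes with the most input per window. The lowest median, 16 tags, was found on chromosome 4 from 150000001 to 150500000. A median of 16.5 tags was shared by 7 windows, which start on chromosome 2 at 28500001, on chromosome 4 at 128500001 and 140000001, on chromosome 5 at 140000001, on chromosome 9 at 20000001 and on chromosome 15 at 78000001 and 101000001. They held 8 to 16 peaks. None of the windows with the highest or lowest medians held more than 16 peaks.

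Outside peaks and 1 kb on each side of them, peak-dense windows had more KDM2A tags than the rest of the genome. They held 1881700 KDM2A tags in 237284 kb, or 7.93 tags per kb. Windows with 1 to 7 peaks had 3.76 tags per kb and windows without a peak 1.75. The density in peak-dense windows was 2.11 times that in windows with 1 to 7 peaks (95% exact interval of counting error 2.108 to 2.115) and 4.54 times that in windows without a peak (4.53 to 4.55). Input was higher as well, but less so, at 4.88, 3.47 and 2.19 tags per kb, which is 1.41 times (1.40 to 1.41) and 2.23 times (2.23 to 2.24). Most peak-dense windows lay above most others in this measure. Of the 513 peak-dense windows, 484 lay above the upper quartile of windows with 1 to 7 peaks, and 4 lay below their median. These counts follow the rule in part, since a high level outside peaks also lifts bins over the minimum, and they are not a test.

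The level outside peaks rose with the number of peaks, within the peak-dense windows as well as below the limit. The median KDM2A density was 1.53 tags per kb in windows without a peak, 2.49 with a single peak, 3.57 with 2 to 3 and 4.87 with 4 to 7. In peak-dense windows it was 6.82 with 8 to 11 peaks, 8.13 with 12 to 19, 9.54 with 20 to 29 and 12.2 with 30 or more. Input rose from 2.07 to 4.09 tags per kb below the limit and then little, from 4.64 to 5.44. The ratio of KDM2A to scaled input outside peaks therefore crossed 1, with medians of 0.609 without a peak, 0.965 with 4 to 7 peaks, 1.15 with 8 to 11 and 1.74 with 30 or more. It exceeded 1 in 459 of the 513 peak-dense windows (89.5%), in 18.6% of the windows with 1 to 7 peaks and in 1.06% of those without a peak. Where the ratio crosses 1 depends on the scaling to equal totals, which includes the tags in peaks, but the order of the groups does not.

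**Figure D4:**
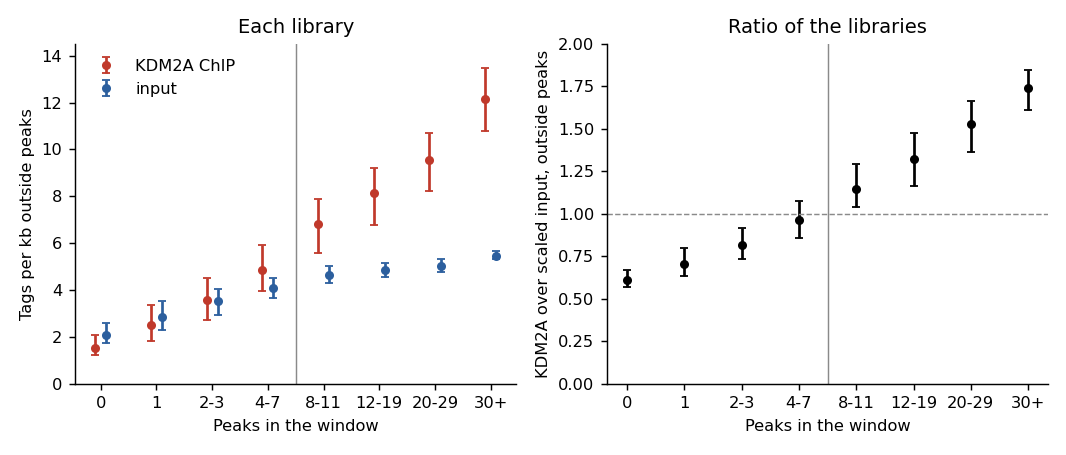
Tags per kb outside peaks and 1 kb on each side (left, KDM2A ChIP in red and input in blue) and the ratio of KDM2A to scaled input there (right), by the number of peaks in the window. Points are medians over windows, bars run from the lower to the upper quartile, and the grey vertical line separates peak-dense windows. KDM2A rises in every step, from 1.53 to 12.2 tags per kb, while input levels off near 5 and the ratio rises from 0.609 to 1.74.

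The higher level was not restricted to the flanks of peaks. From 1 to 2 kb from the nearest peak edge, peak-dense windows had 12.1 KDM2A tags per kb and windows with 1 to 7 peaks had 7.06. At 5 to 10 kb the densities were 8.79 and 4.89 tags per kb, and at 20 to 50 kb they were 6.80 and 4.27. Beyond 50 kb from any peak, in 31704 kb of peak-dense windows, KDM2A was still at 5.39 tags per kb, compared with 3.20 in windows with 1 to 7 peaks. KDM2A over scaled input fell from 1.88 at 1 to 2 kb to 1.04 beyond 50 kb in peak-dense windows, and from 1.42 to 0.805 in the others. Immediately next to a peak the order was different. Within 250 bp of an edge KDM2A density was nearly the same, at 33.2 and 31.9 tags per kb, and the ratio to input was lower in peak-dense windows, at 5.05 against 6.10. Over the first 2 kb the fall was thus steeper in windows with few peaks. From 2 to 5 kb to beyond 50 kb, KDM2A fell from 9.89 to 5.39 tags per kb in peak-dense windows. In windows with 1 to 7 peaks it fell from 5.39 to 3.20, which is not steeper. With a margin of 5 kb in place of 1 kb around peaks, the KDM2A density outside peaks was 1.996 times that of windows with 1 to 7 peaks.

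**Figure D5:**
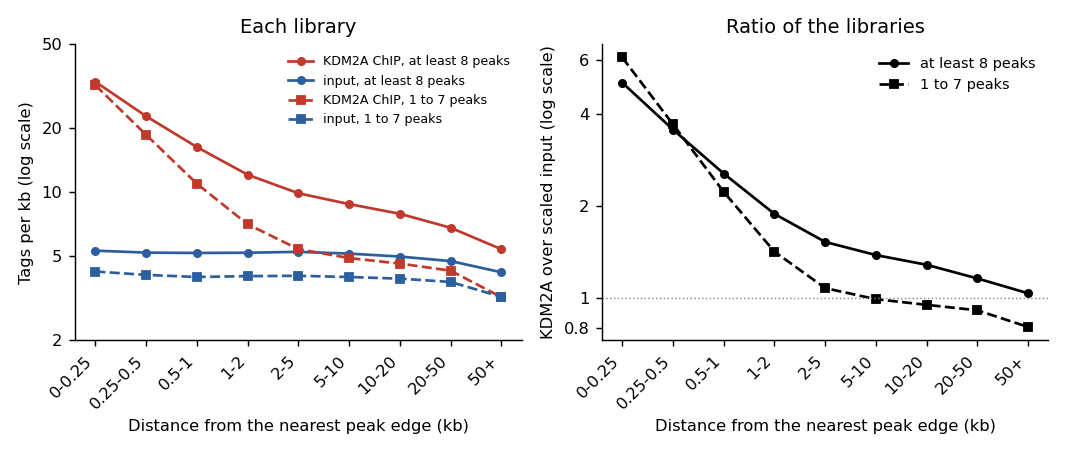
KDM2A ChIP and input tags per kb (left, log scale) and KDM2A over scaled input (right, log scale) by distance from the nearest peak edge (kb), in peak-dense windows (solid lines) and windows with 1 to 7 peaks (dashed lines). The classes start at 33.2 and 31.9 KDM2A tags per kb next to the edge and separate over the first 5 kb. At 2 to 5 kb they are at 9.89 and 5.39, and beyond 50 kb at 5.39 and 3.20. Input changes little over the first 20 kb.

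The KDM2A level was also compared between windows in the same range of input. Among windows with 4 to 5 input tags per kb outside peaks, the median KDM2A density was 7.35 tags per kb in 277 peak-dense windows (quartiles 6.33 and 8.39), 5.28 in 671 windows with 1 to 7 peaks (4.73 and 6.10) and 4.39 in 36 windows without a peak. The order was the same at 3 to 4 input tags per kb, with 4.73, 3.60 and 2.99. At 5 to 6 input tags per kb, 160 peak-dense windows had a median of 8.93 and 75 windows with 1 to 7 peaks a median of 6.70. In each of these 3 ranges of input the upper quartile of windows with 1 to 7 peaks stayed below the lower quartile of peak-dense windows.

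Many bins of peak-dense windows lay just below the minimum. Outside peaks, they had 81.98 bins of 10 to 14 KDM2A tags per Mb, compared with 12.8 in windows with 1 to 7 peaks and 1.28 in windows without a peak. This order follows in large part from the rule, which chose the windows by bins that passed the minimum. Set beside the peaks, there were 21029 such bins for 7533 peaks in peak-dense windows. In windows with 1 to 7 peaks there were 16106 for 6949 peaks. Bins of at least 15 tags that were refused for their input were few, at 352 in all peak-dense windows or 1.37 per Mb, and 224 of them held 8 or more input tags.

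The window with the highest KDM2A level outside peaks was high in both libraries. On chromosome 11 from 3000001 to 3500000, with 16 peaks, there were 24.96 KDM2A tags and 19.6 input tags per kb outside peaks, and KDM2A was 1.03 times the scaled input. After it came the window of chromosome 10 from 80500001 to 81000000, with 16.2 KDM2A and 5.40 input tags per kb, where the ratio of 2.42 was the highest of all peak-dense windows. The window of chromosome 10 from 79500001 to 80000000 had a ratio of 2.19. On chromosome 4 from 155500001 to 156000000, the ratio was 2.32, but that window held 477 input tags in all, its 9 peaks lay within 103.5 kb and 390 kb had no peak start. At the other end were the windows of chromosome 4 from 116000001 to 116500000, with 10 peaks and a ratio of 0.816, of chromosome 11 from 83000001 to 83500000, with 12 peaks and 0.828, and of chromosome 17 from 15500001 to 16000000, with 10 peaks and 0.831. In these 3 windows the peaks stood on a KDM2A level of 3.60 to 4.36 tags per kb, near the 3.61 that was the median of windows with 1 to 7 peaks.

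For comparison, the region of chromosome 3 that the study draws as an example lies in a window, from 103500001 to 104000000, that was not peak-dense. The window held 3 peaks with heights of 26, 30 and 30 tags, on a level outside peaks of 3.19 KDM2A tags and 3.53 input tags per kb. The peak of 26 tags, from 103594501 to 103595500, lies outside the drawn region. All 3 heights are above 21 tags, the median both of peak-dense windows and of windows with 1 to 7 peaks.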

How the data were processed

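1 KDM2A ChIP library and 1 input library from V6.5 ESCs were analysed, as assigned by the sample labels. The values the authors deposited are raw counts of aligned tags, listed by chromosome, strand and position without any normalization. The submitters' processing notes name Bowtie and the build mm9, and versions and settings are not given in the sources used here. The KDM2A library held 10042076 tags at 9564671 positions and strands, the input library 9760426 at 7764852. Copies beyond the first at a position and strand, 4.75% and 20.4% of the tags, were dropped, so PCR copies weigh less but very deep bins are capped.

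Plus-strand tags were moved by 50 bp toward higher positions and minus-strand tags by 50 bp toward lower ones. Bins, peaks and windows were then made as stated in the results, in Python (3.11.15) using pandas (2.3.3), numpy (2.4.6) and scipy (1.17.1), with plots from matplotlib (3.10.9). Windows with no tag were left out. The calling of bins, peaks and windows and the density ratio were tested on simulated counts per bin. That test did not cover the counting of tags once per position and strand or their movement. Since the members were chosen on these libraries, which have no replicate, no test was made. Shares have 95% Wilson intervals and density ratios exact Poisson intervals. The members, the lists of windows and the alternatives were chosen with earlier results of these data known. The windows named are the 10 with the most peaks, runs of adjacent windows, extremes of height and of level outside peaks, and the window of the study's example region, by a written rule, whereas extremes of spacing and single peaks were added after their values were seen. Of the 61 runs of 3 or more windows, the 6 longest and that of chromosome 10 are described and the others are counted. No genome of the build of the files was used, so no sequence is printed and no gene is placed in a window.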

Additional observations from a re-analysis of the deposited data

Results flagged for a closer look

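Chromosome X was outside the rule and was looked at separately. With the minimum of 15 tags it had 69 peaks in 328 windows, compared with 3 with the libraries exchanged, and no window held more than 6. Its input per window was 0.333 times that of the median autosome. With the minimum multiplied by this value, to 4.99 tags, 29 windows (8.84%) held at least 8 peaks, the highest 36, among 912 peaks on the chromosome. The exchanged libraries then gave 189 peaks, so a larger part of these peaks is at the noise level than on the autosomes, where the exchanged libraries gave 12 peaks against 14482. This choice of minimum was made after seeing the data. No group had the 4 samples needed to look for a library that stands apart.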

How the results depend on the processing

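No paired analysis was possible because each group holds 1 library. The number of peak-dense windows, 513, stayed between 433 and 599 in every alternative but the minimum of 20 tags, where it was 239, all of them among the 513. Shares of peaks, medians and density ratios rest on so many tags that small changes leave their intervals, and the cause was not tested. The ratios of density outside peaks stayed above 1 in all alternatives run. With the minimum of 20 tags, the share of peaks in peak-dense windows was 33.7%, the median spacing 21.75 kb, the median height 25 tags, and the ratios to windows with 1 to 7 peaks were 2.13 for KDM2A and 1.38 for input. With the minimum scaled by chromosome these were 45.5%, 19.75 kb, 22 tags, 2.09 and 1.37. With a random 50% of the positions, a minimum of 8 and under 4 input tags, they were 56.9%, 15.25 kb, 10 tags (fewer by construction), 2.10 and 1.42. Counting all tags gave a share of 55.5%, a spacing of 15.75 kb and an input ratio of 1.44. Unmoved tags gave a share of 51.1%. Gaps of up to 1000 bp gave 50.6%, 18.5 kb and a KDM2A ratio of 2.12. Windows that started 250 kb later gave 52.9% and ratios of 2.08 and 1.39. A margin of 5 kb gave ratios of 1.996 and 1.39. Scaling input by the bins outside peaks changed no value beyond its interval. Among alternatives chosen after seeing the data, the minimum of 14 tags above the window's level gave 45.6%, 20.5 kb, 22 tags, 2.14 and 1.40, leaving out chromosome 8 gave 50.05%, 2.10 and 1.39, and leaving bins with 8 or more input tags out of the level outside peaks gave 2.11 and 1.40.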
